A study of Mus musculus with 2 samples.

Results

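The immediate early genes examined here were Fos, Fosb, Jun, Junb, Jund, Egr1, Atf3, Ier2, Nr4a1 and Dusp1. They were found by matching the gene identifiers of the tables, without their version suffix, to these symbols. All 10 had a row in both tables, among 43346 gene rows in all. The hearts came from B6NCrl mouse embryos at embryonic day 14.5, and the labels name no genotype change, treatment or other condition. Total RNA longer than 200 nt was sequenced from 2 libraries, each made from 10 ng of RNA of a single heart with spike-in RNA added. Replicate 2 was pup 1 of pregnant 2 collected on day 17 of July, and replicate 1 was pup 1 of pregnant 2 collected on day 15 of July.

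Immediate early genes are those whose transcription starts within minutes of a growth factor, calcium, stretch or stress signal without new protein synthesis. Kinases of the MAP kinase and cyclic AMP pathways phosphorylate factors already present at their promoters, such as CREB and the ELK partners of SRF. The short-lived transcripts encode transcription factors and feedback inhibitors, and in heart muscle they are known for their rise with stretch, hormone stimulation and reperfusion.

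The libraries held 2.90e+07 expected counts in replicate 2 and 2.85e+07 in replicate 1. An expected count is an estimated number of reads, and TPM divides it by length and scales it to a sum of 1000000 over all rows. On a transcript of 1 kb effective length, 1 count was worth 0.0475 TPM in replicate 2 and 0.0478 in replicate 1. All 12 cardiomyocyte markers were at 1 TPM or more in both libraries, led by Actc1, Myl2 and Tnnt2, and summed to 47439 TPM in replicate 2 against 47257 TPM in replicate 1. The sums do not show the single markers, which differed in both directions as given below. The libraries did not match the sex label, which gives a pool of male and female for both. Xist, which is transcribed from the inactive X chromosome, was at 37.7 TPM in replicate 2 and 0.04 in replicate 1. The Y-linked genes Ddx3y and Eif2s3y were at 0 TPM in replicate 2, and at 27.3 and 57.5 TPM in replicate 1. The embryos therefore differed in X- and Y-linked expression as well as in collection day, and differences by embryo, sex and day cannot be told apart. Each heart is 1 library, so no test between the hearts was possible and no p-value is given.

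Of the 10 genes, 9 were at 1 TPM or more in both hearts, and Fosb was not. Over all gene rows 13635 (31.5%) reached this level, and over protein-coding rows 12202 of 21474 (56.8%) did. The median of the 10 genes was 10.6 TPM in replicate 2 against 11.2 TPM in replicate 1, with a median of the gene means of 10.7 ± 0.424 TPM (SD of the library medians, n = 2). The detected protein-coding genes, at 1 TPM or more in both hearts, had a higher median, 16.1 TPM, with quartiles of 6.31 and 40.6 TPM. The 10 genes were not filtered in this way, and all protein-coding rows had a lower median, 3.255 TPM. Summed, the 10 genes took 181 TPM in replicate 2 and 162 in replicate 1. In order of mean TPM they ran Jund, Ier2, Jun, Dusp1, Atf3, Egr1, Junb, Nr4a1, Fos and Fosb. In 6 of the 9 neighbouring pairs of this order the library values did not overlap. Ier2 overlapped Jun, Jun overlapped Dusp1 and Egr1 overlapped Junb, and Egr1 was above Junb in replicate 2 but below it in replicate 1. The span from Jund to Fos was 15.7-fold in mean TPM. The span from Jund to Fosb was 596-fold, which rests on very few Fosb counts.

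**Figure D1:**
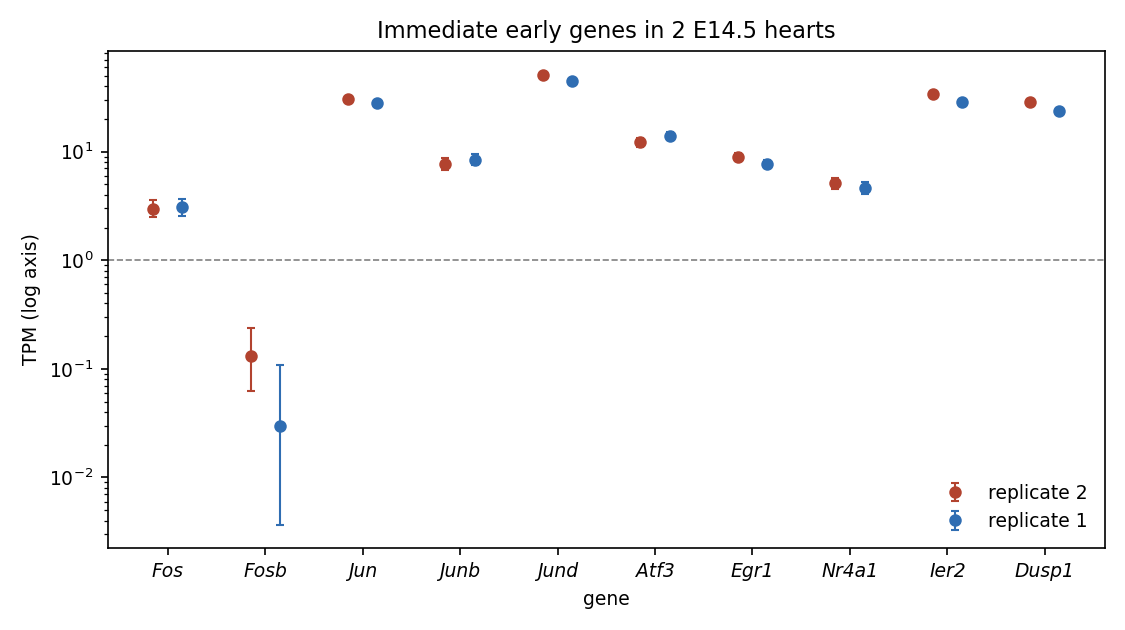
TPM of the 10 immediate early genes (log axis) in replicate 2 (red) and replicate 1 (blue), with bars for the exact 95% counting interval of each library's count and a dashed line at 1 TPM. Jund, Ier2, Jun and Dusp1 lay between 23.6 and 50.7 TPM, Fos near 3 TPM, and Fosb at 0.13 TPM in replicate 2 and 0.03 in replicate 1.

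Fos, whose protein binds DNA as a heterodimer, for example with a Jun protein, was the lowest but 1 of the set. Its level was 2.98 TPM in replicate 2 and 3.09 in replicate 1, from 123 and 120 counts in those libraries. The hearts were nearly equal, with a mean of 3.04 ± 0.0778 TPM (SD, n = 2, as for all means of single genes here). This is percentile 11.1 of the detected protein-coding genes. The log2 of replicate 2 over replicate 1 after TMM scaling was -0.02, a fold of 0.985 with an exact 95% counting interval from 0.760 to 1.28. The gene lies on chromosome 12 from 85473890 to 85477273 on the plus strand (GRCm38, GENCODE M21, as for all genes here). Fosb, the closest relative of Fos and the source of the stable splice form deltaFosB in neurons, was at 0.13 TPM in replicate 2 and 0.03 in replicate 1. These values rest on 10 counts in replicate 2 and 2 in replicate 1, with exact Poisson 95% intervals of 4.80 to 18.4 counts and 0.242 to 7.22 counts. The intervals overlap, and the scaled ratio of the counts, 4.80, had a counting interval from 1.02 to 45.1. Fosb lies on chromosome 7 from 19302696 to 19310051 on the minus strand. Its only transcript in the tables was 3751 nt long, so deltaFosB was not measured apart.

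The promoters of Fos and Fosb are shown because these were the scarcest of the 10 transcripts. The windows are RefSeq's, 250 bases before to 50 bases after the annotated start, on build GRCm38.p6. Capitals mark matches on either strand to the full cyclic AMP response element (CRE, TGACGTCA), its core TGACG, the AP-1 site TGANTCA, the TATA box TATAAA, the Egr site GCGNGGGCG and the CArG box, to which SRF binds. The CArG box was searched as CCWWWWWWGG, where W is A or T. Each full CRE also counts as a core match on both strands. Fos is from chr12:85473640-85473939 on the plus strand and Fosb from chr7:19309996-19310295 on the minus strand, both written 5′ to 3′ along the gene.
Fos: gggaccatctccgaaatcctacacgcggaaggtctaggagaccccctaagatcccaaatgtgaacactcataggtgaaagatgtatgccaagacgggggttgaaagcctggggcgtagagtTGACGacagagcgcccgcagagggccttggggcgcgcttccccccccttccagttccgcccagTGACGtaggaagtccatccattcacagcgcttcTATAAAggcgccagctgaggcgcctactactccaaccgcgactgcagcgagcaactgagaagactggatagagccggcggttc
Fosb: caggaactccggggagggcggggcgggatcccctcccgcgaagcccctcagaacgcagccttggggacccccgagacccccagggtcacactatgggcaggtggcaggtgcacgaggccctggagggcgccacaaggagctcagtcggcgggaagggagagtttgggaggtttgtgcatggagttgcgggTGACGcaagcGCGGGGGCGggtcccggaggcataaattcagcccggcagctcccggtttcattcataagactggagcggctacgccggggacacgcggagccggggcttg
With the RefSeq start at position 0, the Fos window held the core at -129 and -66 and a TATA box at -33. The Fosb window held the core at -60 and an Egr site at -50. Neither held a CArG box, and the serum response element for which the Fos promoter is known lies further upstream than this window reaches.

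Windows were found for 8 of the 10 genes, all but Egr1 and Ier2, whose promoters were not searched. For 7 the window's start lay within 100 bases of the leading transcript's start in GENCODE M21. Of these 7, 6 held the core TGACG (Fos, Fosb, Junb, Atf3, Nr4a1 and Dusp1, but not Jun), against 20.8% of 32851 windows of the same length. The 32851 windows were not held to the limit of 100 bases, here or for the shares below. The full CRE was in 1 of 7 (Dusp1), against 1.79% of all windows, and the Egr site in 2 of 7 (Fosb and Nr4a1), against 5.55%. TATAAA was in 2 of 7 (Fos and Junb), against 13.6%, and in Junb it began at the RefSeq start, 30 bases upstream of the start of Junb-201 in GENCODE M21. None of the 7 held a match to the AP-1 pattern TGANTCA (7.81% of all windows) or a CArG box (1.63%). The Jun window holds TGACATCA, which differs from TGANTCA by 1 added base and was not among the motifs searched for. The Jund window, whose start lay 1210 bases from the start in GENCODE M21, was left out of the 7 and held none of the motifs. Motif matches describe letters in the windows and do not show that a factor was bound.

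The Jun genes, whose proteins pair with one another as well as with Fos proteins, were more abundant than the Fos genes in both hearts. Jun was at 30.6 TPM in replicate 2 and 27.8 in replicate 1, from 1987 and 1796 counts in those libraries. Its mean was 29.2 ± 1.97 TPM, at percentile 66.5, and the fold between the hearts was 1.06 with a counting interval from 0.997 to 1.13. Junb, which can oppose Jun at shared target genes, was at 7.70 TPM in replicate 2 and 8.43 in replicate 1, from 282 and 307 counts. Its mean was 8.07 ± 0.516 TPM, and its fold of 0.883 had an interval from 0.748 to 1.04. Jund, the family member known for steady expression in resting cells, was the highest of the 10 genes at 50.7 TPM in replicate 2 and 44.7 in replicate 1. Its 2961 counts in replicate 2 and 2601 in replicate 1 gave a mean of 47.7 ± 4.19 TPM, at percentile 78.6, and a fold of 1.09 (1.04 to 1.15). Jund exceeded Jun 1.66-fold in replicate 2 and 1.61-fold in replicate 1, and Jun exceeded Junb 3.97-fold in replicate 2 and 3.30-fold in replicate 1. The genes lie on chromosome 4 (Jun, 95049034 to 95052222, minus strand) and on chromosome 8 (Junb, 84974484 to 84978718, minus strand, and Jund, 70698949 to 70700616, plus strand).

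The level of Jund carries a limit. The antisense gene Gm11175 lies within Jund on the opposite strand (chromosome 8, 70699162 to 70700080). In GENCODE M21, 48.3% of the 50-base stretches of the Jund transcript occur in Gm11175 in reverse complement. The models that were counted, 2878 nt for Jund and 543 nt for Gm11175, differ from these and were not compared in this way. The sources used here do not say whether the counting used strand. Gm11175 was assigned 753 counts in replicate 2 and 675 in replicate 1, which is 20.3% and 20.6% of the reads of the pair in those libraries. The authors' posterior SD of the count was 23.6 reads in replicate 2 and 21.4 in replicate 1, the same for Jund and for Gm11175. The separate counts were fractional (2961.14 for Jund and 752.86 for Gm11175 in replicate 2), while their sum was a whole number in each library. Reads were thus divided between both genes, and strand did not fully separate them. Summed over both genes there were 3714 counts in replicate 2 and 3276 in replicate 1. Their log2 difference was 0.12, with a counting interval from 1.04- to 1.14-fold, close to that of Jund alone. The Jund model of the tables was 2878 nt long, and the RefSeq start lies 1210 bases before the start in GENCODE M21, so the length by which TPM was divided depends on the annotation. For Jun the stretches shared with the antisense gene Junos were 5.83%, and Junos held 9.96 counts in replicate 2 and 8.07 in replicate 1. The later Junb model shares 5.76% of its stretches with the abundant gene Prdx2 (13406 counts in replicate 2, 13256 in replicate 1), but the Junb transcript of the tables lies wholly beyond Prdx2. In GENCODE M21 the other 7 genes shared no 50-base stretch with another annotated gene, although Dusp1 overlaps Ergic1 and Gm8225, and Atf3 overlaps Gm24748.

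Together Jun, Junb and Jund summed to 88.9 TPM in replicate 2 and 80.9 in replicate 1, while Fos and Fosb summed to 3.11 TPM in replicate 2 and 3.12 in replicate 1. The transcripts of Jun subunits therefore exceeded those of Fos subunits 28.6-fold in replicate 2 and 25.9-fold in replicate 1. Without Jund the excess was 12.3-fold in replicate 2 and 11.6-fold in replicate 1. With the Fos-related genes Fosl1 and Fosl2 added to the Fos side, it was 16.8-fold in replicate 2 and 14.9-fold in replicate 1. The make-up of the Jun transcripts was similar in both hearts. Jund held 57.0% of their TPM in replicate 2 and 55.3% in replicate 1, Jun held 34.4% and 34.3%, and Junb held 8.66% and 10.4% in those libraries. These are ratios of transcripts, and the dimers formed were not measured.

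Atf3, a stress-induced factor of the same basic leucine zipper class, was at 12.1 TPM in replicate 2 and 13.9 in replicate 1. Its 481 counts in replicate 2 and 547 in replicate 1 gave a mean of 13.0 ± 1.23 TPM, at percentile 43.6. Atf3 was lower in replicate 2 by 0.24 on the log2 scale, a fold of 0.845 with a counting interval from 0.746 to 0.957. Of the 3 genes lower in replicate 2 (Atf3, Junb and Fos), it alone had an interval that excluded 1. The gene lies on chromosome 1 from 191170296 to 191218039 on the minus strand.

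The wider family that can pair with these proteins or bind related sites was mostly present. Of 19 other Fos, Atf, Batf, Jdp and bZIP partner genes, 16 were at 1 TPM or more in both hearts, with a median of 5.56 TPM in replicate 2 and 6.18 in replicate 1. The highest was Atf4, the effector of the integrated stress response, at 55.5 TPM in replicate 2 and 53.9 in replicate 1. The antioxidant regulator Nfe2l2 followed at 43.1 TPM in replicate 2 and 41.0 in replicate 1, with its relative Nfe2l1 at 42.4 TPM in replicate 2 and 38.5 in replicate 1. The Atf4 transcript was more abundant than that of Atf3 in each heart. Fosl2 was at 2.01 TPM in replicate 2 and 2.09 in replicate 1, so Fos exceeded it by 1.48-fold in both. Fosl1 (0.18 TPM in replicate 2, 0.21 in replicate 1) and Jdp2 (0.47 TPM in replicate 2, 0.46 in replicate 1) were below 1 TPM. Batf2 had 0 counts in replicate 2 and 6 in replicate 1, and a count of 0 allows up to 3 counts as a one-sided 95% limit. Of the 12 relatives with a mean count of at least 100, 7 were higher and 5 lower in replicate 2, with a median log2 difference of 0.02. None of them was past 1.5-fold, which 1.92% of all genes at this count passed.

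**Figure D2:**
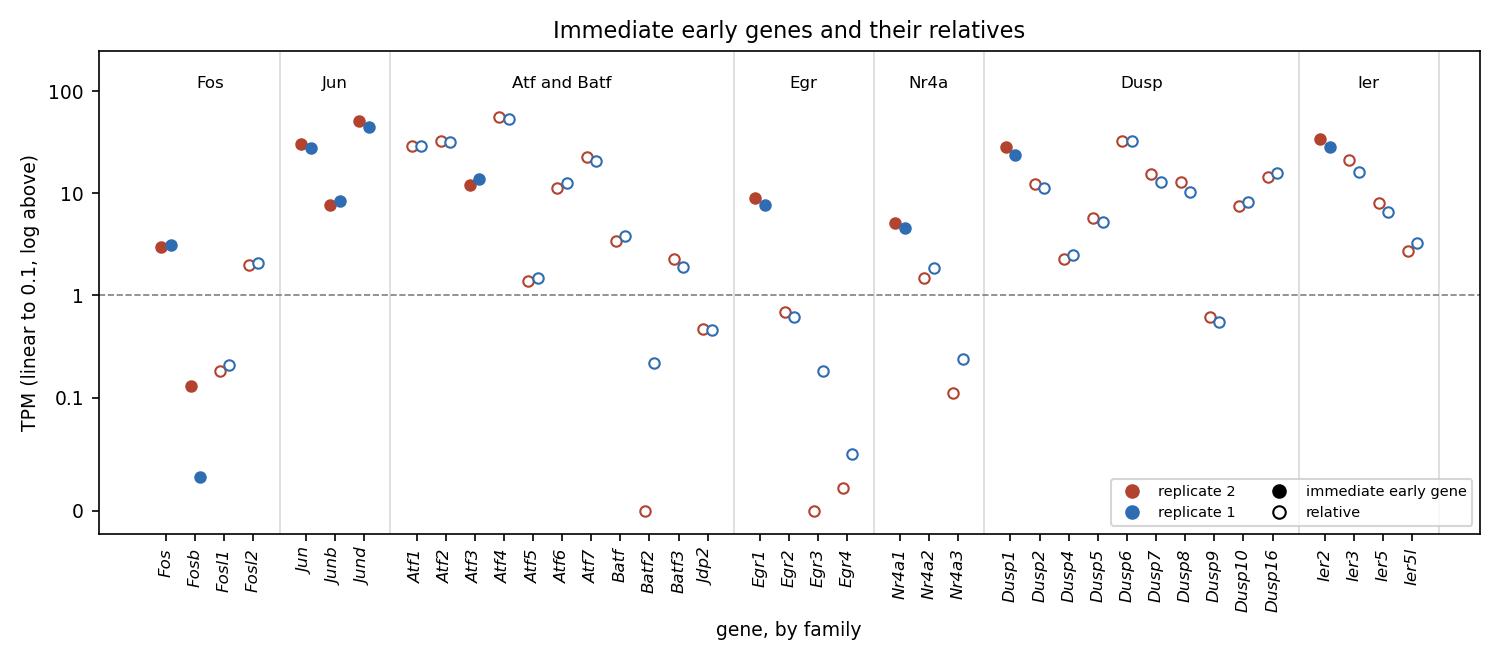
TPM of the immediate early genes (filled) and their relatives (open), grouped by family, in replicate 2 (red) and replicate 1 (blue), on an axis that is linear up to 0.1 TPM and logarithmic above, with a dashed line at 1 TPM. Jun, Junb and Jund stood above the Fos genes, Egr1 above Egr2, Egr3 and Egr4, and Nr4a1 above Nr4a2 and Nr4a3 in both hearts.

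Egr1, a zinc finger factor induced through SRF and ELK proteins, was at 8.97 TPM in replicate 2 and 7.66 in replicate 1. Its 576 counts in replicate 2 and 487 in replicate 1 gave a fold of 1.14 with an interval from 1.01 to 1.28, so replicate 2 was higher by a margin just beyond counting error. The mean was 8.32 ± 0.926 TPM, at percentile 31.5. Egr1 lies on chromosome 18 from 34859823 to 34864984 on the plus strand. The other Egr genes were all below 1 TPM in both hearts. Egr2 was at 0.69 TPM in replicate 2 and 0.62 in replicate 1, Egr4 was at 0.02 TPM in replicate 2 and 0.05 in replicate 1, and Egr3 had 0 counts in replicate 2 and 5 in replicate 1. Egr1 exceeded Egr2 13.0-fold in replicate 2 and 12.4-fold in replicate 1. Of the corepressors that bind Egr proteins, Nab1 was at 25.1 TPM in replicate 2 and 25.2 in replicate 1. Nab2, known as a target of Egr1 itself, was at 6.97 TPM in replicate 2 and 4.98 in replicate 1. Nab2 stood above its counting error with a log2 difference of 0.42, or 1.34-fold, and an interval from 1.13 to 1.58.

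Ier2, which encodes a small nuclear regulator, was at 34.1 TPM in replicate 2 and 28.4 in replicate 1, from 1021 and 846 counts in those libraries. Replicate 2 was higher beyond counting error, with a fold of 1.16 (1.06 to 1.27). The mean was 31.3 ± 4.03 TPM, at percentile 68.3 and below only Jund among the 10 genes. Ier2 lies on chromosome 8 from 84661331 to 84662852 on the minus strand. Its relative Ier5 was lower, at 8.11 TPM in replicate 2 and 6.51 in replicate 1, so that Ier2 exceeded it 4.21-fold in replicate 2 and 4.36-fold in replicate 1.

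Nr4a1, an orphan nuclear receptor also called Nur77, was at 5.10 TPM in replicate 2 and 4.61 in replicate 1. Its 255 counts in replicate 2 and 229 in replicate 1 gave a mean of 4.86 ± 0.346 TPM, at percentile 19.1, and a fold of 1.07. The interval from 0.892 to 1.28 included 1. The gene lies on chromosome 15 from 101254269 to 101274795 on the plus strand. Nr4a2 was at 1.47 TPM in replicate 2 and 1.85 in replicate 1, and Nr4a3 at 0.11 TPM in replicate 2 and 0.24 in replicate 1, so Nr4a1 led its family in each heart. The Nr4a1 promoter is shown because it held more core matches than any other of the 7 windows. It is RefSeq's window chr15:101266596-101266895 on the plus strand, with capitals for the same motifs.
Nr4a1: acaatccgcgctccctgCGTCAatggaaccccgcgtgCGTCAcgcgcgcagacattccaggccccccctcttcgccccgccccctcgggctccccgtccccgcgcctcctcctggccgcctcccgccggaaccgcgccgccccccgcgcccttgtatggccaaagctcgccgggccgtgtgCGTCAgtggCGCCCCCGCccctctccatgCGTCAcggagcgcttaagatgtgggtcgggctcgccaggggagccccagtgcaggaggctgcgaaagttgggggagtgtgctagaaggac
The core stood in reverse complement (CGTCA) at -233, -213, -69 and -40. An Egr site, also in reverse complement, stood at -60, between the 2 matches nearest the start.

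Dusp1, a phosphatase that switches off the MAP kinases p38, JNK and ERK and so ends the signal that induces it, had the highest fold of replicate 2 over replicate 1 among the 9 genes other than Fosb. It was at 28.7 TPM in replicate 2 and 23.6 in replicate 1, from 1103 and 896 counts in those libraries. The log2 difference was 0.24, a fold of 1.18 (1.08 to 1.29), about as large as that of Atf3 in the opposite direction. The mean was 26.1 ± 3.64 TPM, at percentile 63.6. Dusp1 lies on chromosome 17 from 26505590 to 26562128 on the minus strand. Its promoter is shown because it alone among the 7 windows held the full CRE. The window is RefSeq's, chr17:26508423-26508722 on the minus strand, with capitals for the same motifs.
Dusp1: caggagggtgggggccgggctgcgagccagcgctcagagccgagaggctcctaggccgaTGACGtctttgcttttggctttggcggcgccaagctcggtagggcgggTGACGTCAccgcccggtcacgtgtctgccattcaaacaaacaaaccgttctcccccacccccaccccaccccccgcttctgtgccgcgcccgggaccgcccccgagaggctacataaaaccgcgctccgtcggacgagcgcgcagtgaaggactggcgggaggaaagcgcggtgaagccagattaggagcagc
The full CRE began at -143 and includes the core at -143 and, on the other strand, at -140. A further core match stood at -191, and in GENCODE M21 Dusp1-202 starts at -47 on this numbering.

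Other phosphatases of the family were compared with Dusp1 per library. Of 9 other MAP kinase phosphatases, 8 were at 1 TPM or more in both hearts, and the ERK phosphatase Dusp6 was the highest at 32.5 TPM in each. Dusp6 exceeded Dusp1 by 1.13-fold in replicate 2 and 1.38-fold in replicate 1, and Dusp1 exceeded Dusp2 by 2.32-fold in replicate 2 and 2.08-fold in replicate 1. Dusp16, which acts on JNK and p38, was at 14.3 TPM in replicate 2 and 15.99 in replicate 1, and the cytoplasmic Dusp7 was at 15.6 TPM in replicate 2 and 12.96 in replicate 1. Dusp9 was below 1 TPM, at 0.62 TPM in replicate 2 and 0.55 in replicate 1. The phosphatases with a mean count of at least 100 went both ways, with 4 of 8 higher and 4 lower in replicate 2. None was past 1.5-fold, which 1.92% of all genes at this count passed, so the 0 is not a result about them.

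Of the 10 genes, 4 had more than 1 transcript in the tables, and in each of them the same transcript led in both hearts. For Fos the coding transcript Fos-201 held 96.3% of the gene's TPM in replicate 2 and 89.6% in replicate 1. The remainder was 1.61 counts of Fos-203 in replicate 2 and 3.58 counts of Fos-202 in replicate 1. Atf3-201 held 100% in replicate 2 and 99.4% in replicate 1. For Egr1 the shorter coding transcript Egr1-202 (3036 nt) held 92.0% in replicate 2 and 93.0% in replicate 1, and the longer Egr1-201 (4484 nt) held 8.03% and 7.05% in those libraries. For Dusp1 the coding Dusp1-202 held 84.9% in replicate 2 and 85.7% in replicate 1. The retained-intron transcripts Dusp1-203 and Dusp1-204 held the other 15.1% in replicate 2 and 14.3% in replicate 1, from 133 and 97.6 counts. Total RNA includes unspliced precursors, and the tables do not separate these from stable retained-intron transcripts.

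**Figure D3:**
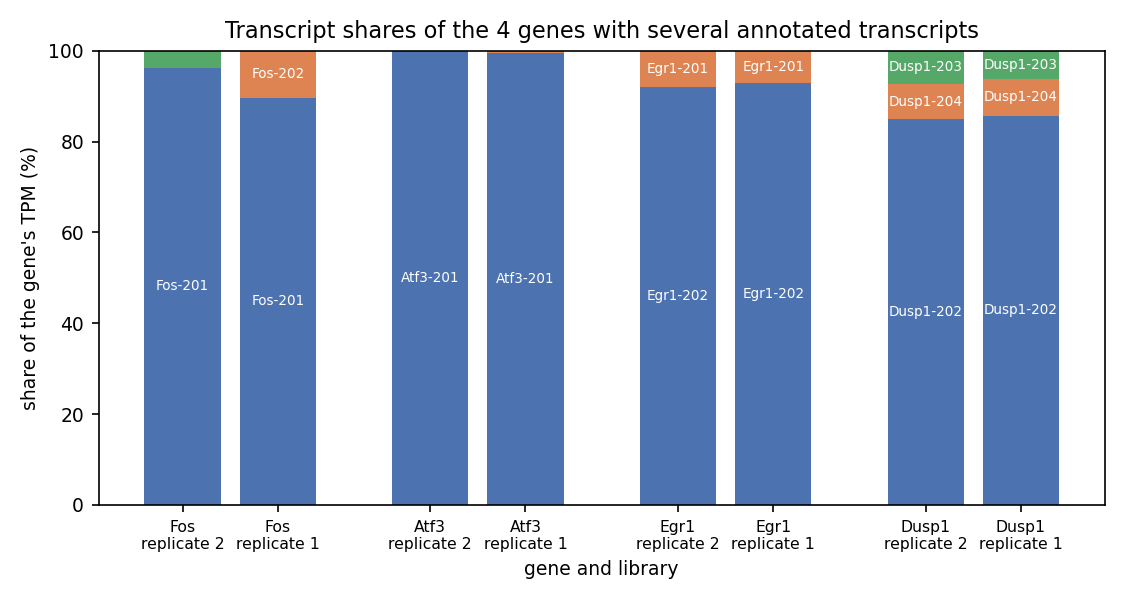
Share of each gene's TPM (%) by transcript for the 4 genes with more than 1 annotated transcript, replicate 2 left of replicate 1 for each gene, stacked to 100. Blue is the leading transcript, which held between 84.9% and 100% in every bar, and the unlabelled slices are Fos-203 at 3.69% in replicate 2 and an Atf3 slice of 0.577% in replicate 1.

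The differences of the immediate early genes between the hearts were small. Of the 9 with a mean count of at least 100, which leaves out only Fosb, 6 were higher and 3 lower in replicate 2, and of all 11958 genes at this count 48.1% were higher in replicate 2. The log2 differences of the 9 ran from -0.24 to 0.24. None of the 9 was past 1.5-fold, where 230 of all genes at that count were (1.92%), and none was past 2-fold, where 51 were (0.426%). At such background shares a count of 0 among 9 genes is not a result about them. The median log2 difference was 0.10 over the 9 genes and -0.01 over all genes, and the median size of the difference without its sign was 0.18 over the 9 genes and 0.10 over all genes. The SD of the differences was 0.17 over the 9 genes and 0.32 over all genes. The SD over all genes includes extreme differences such as those of Xist and Ddx3y, so it does not show that the 9 varied less. Counting intervals excluded 1 for 5 of the 9, namely Dusp1, Ier2, Egr1 and Jund, which were higher in replicate 2, and Atf3, which was lower. The share of all genes whose counting interval excludes 1 was not computed, so this count is not a result about the 9 genes. Counting intervals also leave out the spread between embryos. As the biological coefficient of variation, edgeR's estimate of that spread relative to the mean once counting error is removed, the libraries gave 8.83% over 15735 genes. At the abundance of the 9 genes it ran from 5.77% for Jund to 15.8% for Fos. Without sex-linked genes the value was 8.25% over 15734 genes. The 2 embryos differed in X- and Y-linked expression and in collection day, and the estimate holds those differences too. With scaling by total count or by spike-ins 7 of the 9 were higher in replicate 2, and Fos changed sign to 0.01 by total count and to 0.09 by spike-ins.

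**Figure D4:**
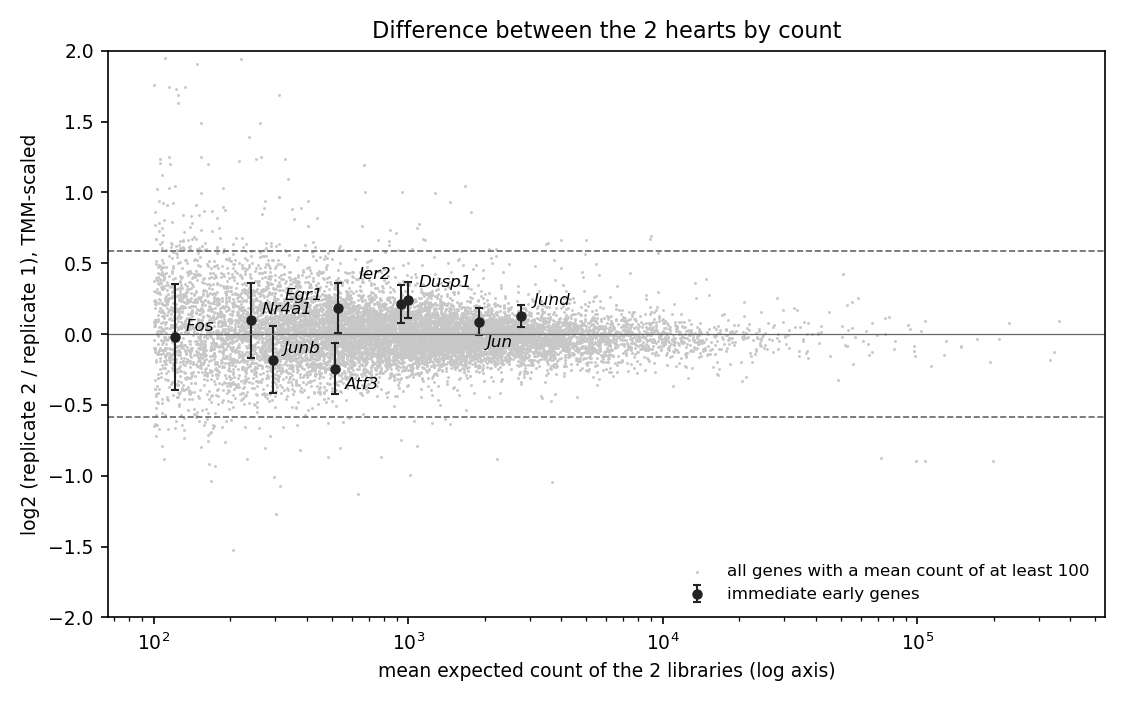
Log2 of replicate 2 over replicate 1 after TMM scaling against the mean expected count (log axis) for all 11958 genes averaging 100 counts or more (grey, 11 of them beyond the plotted range) and for the 9 immediate early genes (black, with exact 95% counting intervals). Dashed lines mark 1.5-fold, inside which all 9 lay, and the small negative value of Fos turned positive with scaling by total count or by spike-ins.

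Other genes of the early response were compared in the same way. Of 39 other immediate early genes, 36 were at 1 TPM or more in both hearts, and their median was 19.8 TPM in replicate 2 and 16.8 in replicate 1. The highest was Zfp36l1, which speeds the decay of short-lived mRNAs, at 96.1 TPM in replicate 2 and 79.7 in replicate 1. The kinase gene Plk2 was at 87.9 TPM in replicate 2 and 86.2 in replicate 1, and the antiproliferative gene Btg1 at 49.1 TPM in replicate 2 and 43.1 in replicate 1. The neuronal activity genes Arc (0.24 TPM in replicate 2, 0.39 in replicate 1) and Npas4 (0.15 TPM in replicate 2, 0.03 in replicate 1) were below 1 TPM, as was Csrnp1 (0.98 TPM in replicate 2, 0.78 in replicate 1). Of the 34 with a mean count of at least 100, 19 were higher and 15 lower in replicate 2, with a median log2 difference of 0.04. None of the 34 was past 1.5-fold, against 1.92% of all genes at this count, so the 0 is not a result about them. Ccn1, which encodes a matricellular protein, had the highest log2 difference of these 34, 0.49, with 33.3 TPM in replicate 2 and 22.9 in replicate 1.

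Genes of the pathways that induce them were also measured. All 30 listed upstream factors and kinases were at 1 TPM or more in both hearts, against 56.8% of protein-coding rows, with a median of 18.5 TPM in replicate 2 and 18.7 in replicate 1. Map2k2, a kinase gene of the ERK cascade, was at 123 TPM in replicate 2 and 114 in replicate 1. Srf, whose protein binds the CArG box, was at 9.81 TPM in replicate 2 and 8.15 in replicate 1. Of the 29 with a mean count of at least 100, 13 were higher and 16 lower in replicate 2, none past 1.5-fold (1.92% of all genes at this count).

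Heat shock genes, which respond to stress through another factor, had 9 of 10 members at 1 TPM or more in both hearts. The constitutive chaperone gene Hspa8 led with 1302 TPM in replicate 2 and 1373 in replicate 1. Hspb1 followed with 791 TPM in replicate 2 and 713 in replicate 1, and Hsp90aa1 with 510 TPM in replicate 2 and 477 in replicate 1. The inducible Hspa1a was at 2.19 TPM in replicate 2 and 1.81 in replicate 1, and Hspa1b at 0.07 TPM in replicate 2 and 0.14 in replicate 1. Hspa1a and Hspa1b are near-identical copies, and how their reads were divided is uncertain. Of the 9 heat shock genes averaging 100 counts or more, 3 were higher and 6 lower in replicate 2, none past 1.5-fold (1.92% of all genes at this count).

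Markers of other cells differed between the hearts to different degrees. All 9 erythroid markers with a mean count of at least 100 were lower in replicate 2, 7 of them by 1.5-fold or more, and the 10 markers, led by Hba-a2, Hbb-bs and Hbb-bt, summed to 34778 TPM in replicate 2 against 61161 TPM in replicate 1. Alas2 (64.3 TPM in replicate 2, 125 in replicate 1) and Slc4a1 (4.36 TPM in replicate 2, 9.21 in replicate 1) were lower by more than 2-fold in TMM-scaled counts. Of the 5 neural crest and neuron markers at that count, 4 were higher in replicate 2, 3 of them by 1.5-fold or more, and the 10 markers, led by Elavl4, summed to 24.7 TPM in replicate 2 against 10.6 TPM in replicate 1. The 3 were Tubb3 (4.78 TPM in replicate 2, 1.19 in replicate 1), Stmn2 (4.91 TPM in replicate 2, 1.52 in replicate 1) and Ngfr (2.32 TPM in replicate 2, 0.97 in replicate 1). Of the 10 fibroblast, epicardial and mesenchyme markers, led by Col3a1, Col1a1 and Postn, 8 were higher in replicate 2 and 1 (Twist1) was past 1.5-fold, with a median log2 difference of 0.16 and sums of 1763 TPM in replicate 2 and 1535 in replicate 1. Of 8 smooth muscle and pericyte markers, led by Acta2, Cnn1 and Tagln, 4 were higher and 4 lower in replicate 2, with a median log2 difference of -0.01. Of these, Myh11 (1.39 TPM in replicate 2, 0.43 in replicate 1) and Mylk were higher by 1.5-fold or more. The 8 markers summed to 1250 TPM in replicate 2 and 1282 in replicate 1. Of the 9 macrophage and leukocyte markers averaging 100 counts or more, 7 were lower in replicate 2, with a median of -0.13, and Ptprc was lower by 1.5-fold or more. All 10 markers of that list, led by Lyz2, C1qb and C1qc, summed to 195 TPM in replicate 2 and 204 in replicate 1. The cardiomyocyte markers and the endothelial and endocardial markers had none past 1.5-fold. Of the 12 cardiomyocyte markers, 3 were higher and 9 lower in replicate 2, with a median log2 difference of -0.09. Of the 10 endothelial and endocardial markers, 3 were higher and 7 lower, with a median of -0.06. The endothelial and endocardial list, led by Egfl7, Pecam1 and Emcn, summed to 452 TPM in replicate 2 and 448 in replicate 1. No marker was at 0 in both hearts. The part of these markers in the differences of the immediate early genes was not tested, and in bulk tissue fewer cells of a type and less RNA per cell cannot be told apart.

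**Figure D5:**
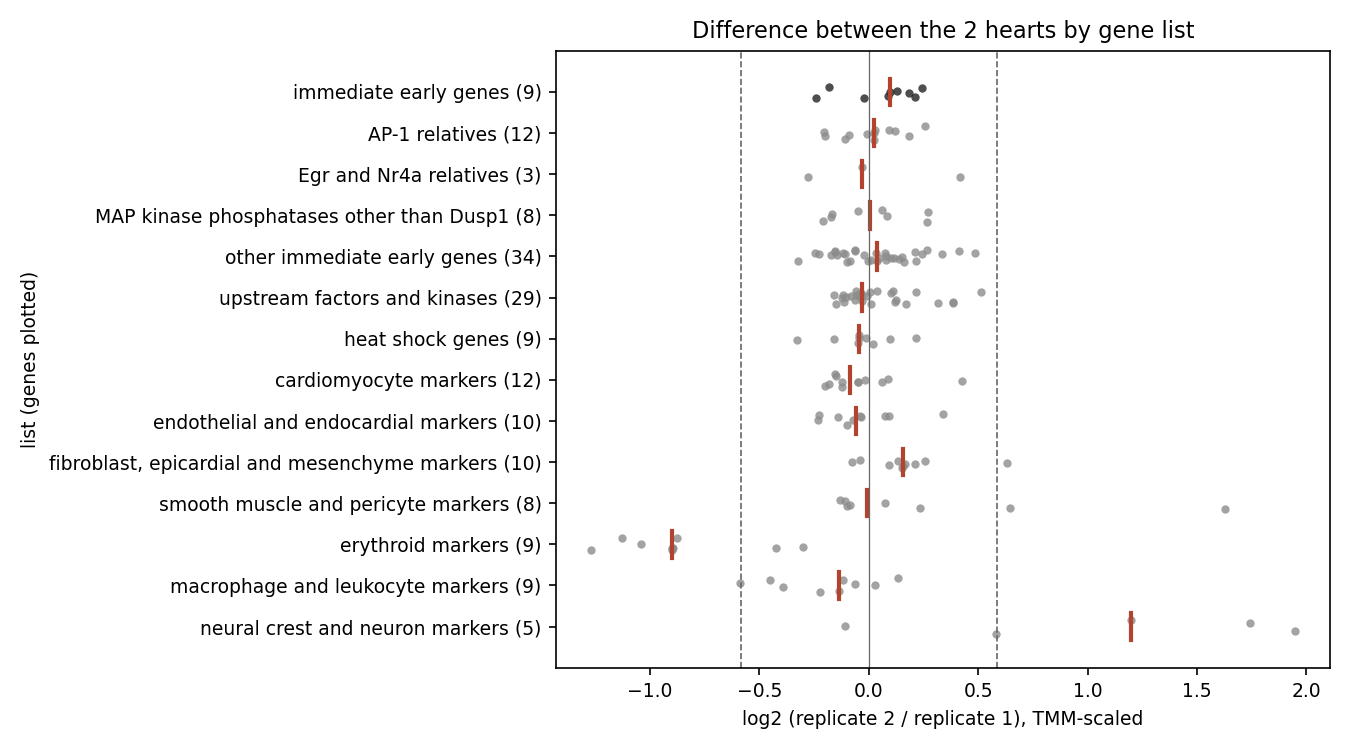
Log2 of replicate 2 over replicate 1 after TMM scaling for each gene (points) averaging 100 counts or more, by list, with a red bar at the list's median, dashed lines at 1.5-fold and the number of genes plotted beside each name. The medians were 0.10 for the immediate early genes, 0.16 for the fibroblast, epicardial and mesenchyme markers, -0.13 for the macrophage and leukocyte markers, -0.90 for the erythroid and 1.20 for the neural crest and neuron markers.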

How the data were processed

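Total RNA was measured in 2 libraries of 1 group, with no pooling of replicates. Reads were assigned on assembly mm10 with GENCODE M4 as the annotation, per the text deposited with each sample. The sources used here do not give the aligner, the quantifier or the use of strand. The authors deposited expected counts, which divide reads among the features they could come from, TPM and FPKM, and, as further columns, posterior estimates and interval bounds of no fixed range (a score). The percent of gene TPM per transcript is also in the deposited tables and was recomputed here. Symbols and positions came from GENCODE M21 on GRCm38, and 42462 of 43346 gene rows had a symbol. Spike-ins were 3.55% of counts in replicate 2 and 3.74% in replicate 1.

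The 10 genes, the 13 lists and the tests were chosen with earlier results of these data known. Expected counts were rounded, scaled by TMM in edgeR 4.0.16 (R 4.3.3) and compared as log2 of replicate 2 over replicate 1 with a prior count of 0.5. Exact Clopper-Pearson 95% intervals of the fold and exact Poisson intervals of counts cover counting error only, and reads without molecular identifiers are not independent molecules. The scaling and dispersion were tested on simulated data. Genes named were the 10, the 3 highest of each list by mean TPM, list genes past 2-fold with a mean count of at least 50, relatives below 1 TPM in both libraries, and overlapping genes; Xist, Ddx3y, Eif2s3y, Fosl2, Dusp2, Ier5, Ccn1, Srf, Twist1, Mylk, Ptprc, Hspa1a, Hspa1b, Arc, Npas4 and Csrnp1 were added after their values were seen. A few list genes that this rule names are not reported here. Python 3.11.15 with scipy 1.17.1 computed intervals. Alternatives were DESeq2 1.42.0 size factors, total count, spike-in total, other priors, posterior means, other minimum counts, TPM rescaled and FPKM.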

Additional observations from a re-analysis of the deposited data

How the results depend on the processing

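The median level of the 10 genes moved with the unit more than with the library, to 11.5 TPM when rescaled over gene rows, 13.1 TPM without mitochondrially encoded and haemoglobin genes and 7.78 as FPKM, while replicate 2 alone gave 10.6 TPM and replicate 1 alone 11.2 TPM. With no minimum count 1 gene (Fosb, 10 counts in replicate 2 and 2 in replicate 1) passed 1.5-fold instead of 0, where 16.7% of all gene rows did so. At a minimum of 10 counts 10.3% of all genes passed it, and at a minimum of 500 counts 0.652%, with 0 of the immediate early genes in either case. The biological coefficient of variation was 10.5% without the filter and 8.25% without sex-linked genes. Scaling by spike-ins moved the median log2 difference of all genes to 0.11 and made 77.7% of them higher in replicate 2, with 57.7% by total count, 61.5% by log2 of TPM + 1 and 48.1% by TMM. The median of the 10 genes was 0.23 with spike-ins and 0.11 with TMM. As shares of posterior mean TPM, Fos-201 held 81.6% and Atf3-201 85.5%. No paired analysis was possible because the series holds 1 group. Depth limits Fosb, Fos and the low relatives most, and 1 library per embryo limits every difference.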
